A study of Mus musculus with 15 samples.

Results

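The genes described are 10 transcription factors of blood and vessel formation, *Tal1*, *Lyl1*, *Lmo2*, *Gata2*, *Gata6*, *Mef2c*, *Hhex*, *Foxc1*, *Foxc2* and *Foxo1*. They were chosen by name from the 53465 genes of the deposited table, and each of the 10 symbols matched 1 gene. The RNA came from 3 populations of host cells of tumors formed by B16-F0, a melanoma cell line of the mouse, and 5 libraries were made of each population. The hosts were adult mice carrying CAG-GFP, a transgene whose promoter is active in nearly all cells. Sorting on GFP was to separate host cells from tumor cells, without marking a lineage. Tumors were taken on day 15, and GFP+ cells without blood lineage markers but with CD34 were sorted by their CD31 and VEGFR2. Endovascular progenitors (EVP) were low for both, transit amplifying cells (TA) had intermediate CD31 and low VEGFR2, and definitive differentiated cells (D) were high for both. All groups therefore shared the transgene, the tumor line and the day. Mice of 8 to 14 weeks and both sexes were used in the study, and the labels do not say how many animals were pooled or which libraries came from the same animals.

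TAL1 and LYL1 are related basic helix-loop-helix proteins that bind DNA as partners of E proteins. LMO2 binds no DNA itself and bridges TAL1 or LYL1 to a GATA factor through LDB1, a complex that acts in blood stem cells and in endothelium. MEF2C, HHEX, FOXC1, FOXC2 and FOXO1 act in vessel growth, Notch signaling, lymphatic development or the response to growth factor signals, and GATA6 is known from heart, gut and mesenchymal cells as well as from endothelium.

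Libraries held 5394356 to 26513073 reads assigned to genes, and replicate 1 was the shallowest of each population. The detection floor, set at 3 reads, lay between 1.81 and 10.5 normalized counts. Olfactory receptor genes, which these cells are not known to use, had a read in 98.3% of cases in EVP replicate 1 against 2.89% in D replicate 5, and the replicates 1 of TA and D were next highest with 81.6% and 89.2%. The summed level of 11 pan-endothelial markers ran from 2429 to 4546 normalized counts in EVP, from 6167 to 79027 in TA and from 110191 to 175174 in D. That of 8 fibroblast markers ran from 840558 to 1494780 in EVP, from 190986 to 606223 in TA and from 979 to 4065 in D. The label endovascular progenitor therefore stood beside low pan-endothelial and high fibroblast marker levels, with *Cdh5*, which encodes VE-cadherin, at a mean of 72.3 in EVP and 9818 in D. The summed level of 7 melanoma markers ran from 29776 to 67410 in EVP, from 69334 to 176152 in TA and from 18213 to 47920 in D. Of these 7, 3 were higher in TA than in EVP, 7 higher in TA than in D and 1 higher in EVP than in D. How these transcripts came into libraries of GFP+ cells was not tested. In bulk libraries fewer cells of a type and less RNA per cell cannot be told apart.

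RefSeq gave promoters of GRCm38.p6 for 7 of the 10 genes (*Tal1*, *Lyl1*, *Gata2*, *Mef2c*, *Hhex*, *Foxc1* and *Foxo1*), and the 250 bases before the transcription start were searched on both strands, from the first listed start where a gene has several. Searched were a GATA motif (AGATAA), the E-box (CANNTG) bound by helix-loop-helix proteins, and an ETS motif (CCGGAA), which mark the capitals, besides a forkhead motif (TGTTTAC) and a MEF2 motif. The related genes *Tal1* and *Lyl1* are shown as the helix-loop-helix factors of the complex, and *Mef2c* because it differed between all 3 populations. The windows are chr4:115056176-115056425 for *Tal1*, chr8:84701207-84701456 for *Lyl1* and chr13:83503784-83504033 for *Mef2c*, all on the plus strand and written 5′ to 3′.
Tal1: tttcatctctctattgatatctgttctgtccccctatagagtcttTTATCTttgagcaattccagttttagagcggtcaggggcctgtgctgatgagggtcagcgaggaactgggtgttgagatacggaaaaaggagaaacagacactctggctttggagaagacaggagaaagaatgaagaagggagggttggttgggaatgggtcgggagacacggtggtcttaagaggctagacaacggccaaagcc
Lyl1: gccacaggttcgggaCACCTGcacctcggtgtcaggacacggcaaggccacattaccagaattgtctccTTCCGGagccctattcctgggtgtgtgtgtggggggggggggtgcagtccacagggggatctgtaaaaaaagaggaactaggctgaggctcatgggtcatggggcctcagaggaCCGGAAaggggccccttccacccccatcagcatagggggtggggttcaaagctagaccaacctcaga
Mef2c: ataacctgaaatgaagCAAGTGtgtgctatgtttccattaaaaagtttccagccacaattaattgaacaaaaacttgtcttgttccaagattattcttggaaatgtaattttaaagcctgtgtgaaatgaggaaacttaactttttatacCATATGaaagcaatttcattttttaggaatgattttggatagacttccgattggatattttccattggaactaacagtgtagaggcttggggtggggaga
The *Tal1* window held 1 GATA motif and no E-box or ETS motif. The *Lyl1* window held 1 E-box and 2 ETS motifs and no GATA motif. The *Mef2c* window held 2 E-boxes, and those of *Hhex* and *Gata2* none of the 5 motifs. *Foxo1* had 1 E-box and *Foxc1* 1 ETS motif. Of all 32851 promoter windows of this length, 9.99% held the GATA motif, 66.2% the E-box, 12% the ETS motif, 3.17% the forkhead motif and 0.103% the MEF2 motif. The matches describe letters only.

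Between EVP and D, 6 of the 10 factors passed the threshold, a Benjamini-Hochberg adjusted p under 0.05 in limma on log2(normalized count + 1). Of these, 5 (*Tal1*, *Gata2*, *Hhex*, *Mef2c* and *Foxo1*) were higher in D and 1, *Gata6*, was higher in EVP. Of all 25549 genes tested, 19.0% passed, 7.46% higher in D and 11.6% higher in EVP. The same 6 factors had libraries that did not overlap between EVP and D, against 17.7% of the tested genes, 7.52% with D above and 10.2% with EVP above. The median log2 difference, D minus EVP, was 1.93 over the 10 factors and -0.46 over all tested genes. This last value was 0.05 with quantile normalization, under which each of the 6 differences kept its sign and its call. All 6 calls also held in each of the 15 fits that left out a library. For any 2 populations, 5 of these fits left out a library of the third. Those 5 can change the estimated spread but not the log2 difference. With background estimated from the olfactory receptor genes subtracted, an alternative chosen after the data were seen, *Foxo1* and *Gata6* no longer passed, with log2 differences of 3.17 and -3.84 (limma adjusted p = 0.136 and 0.0597) against 1.67 and -4.66 without subtraction. Between these populations 10 of the 11 pan-endothelial markers were higher in D and all 8 fibroblast markers in EVP, and their part in the differences of the factors was not tested.

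**Figure D1:**
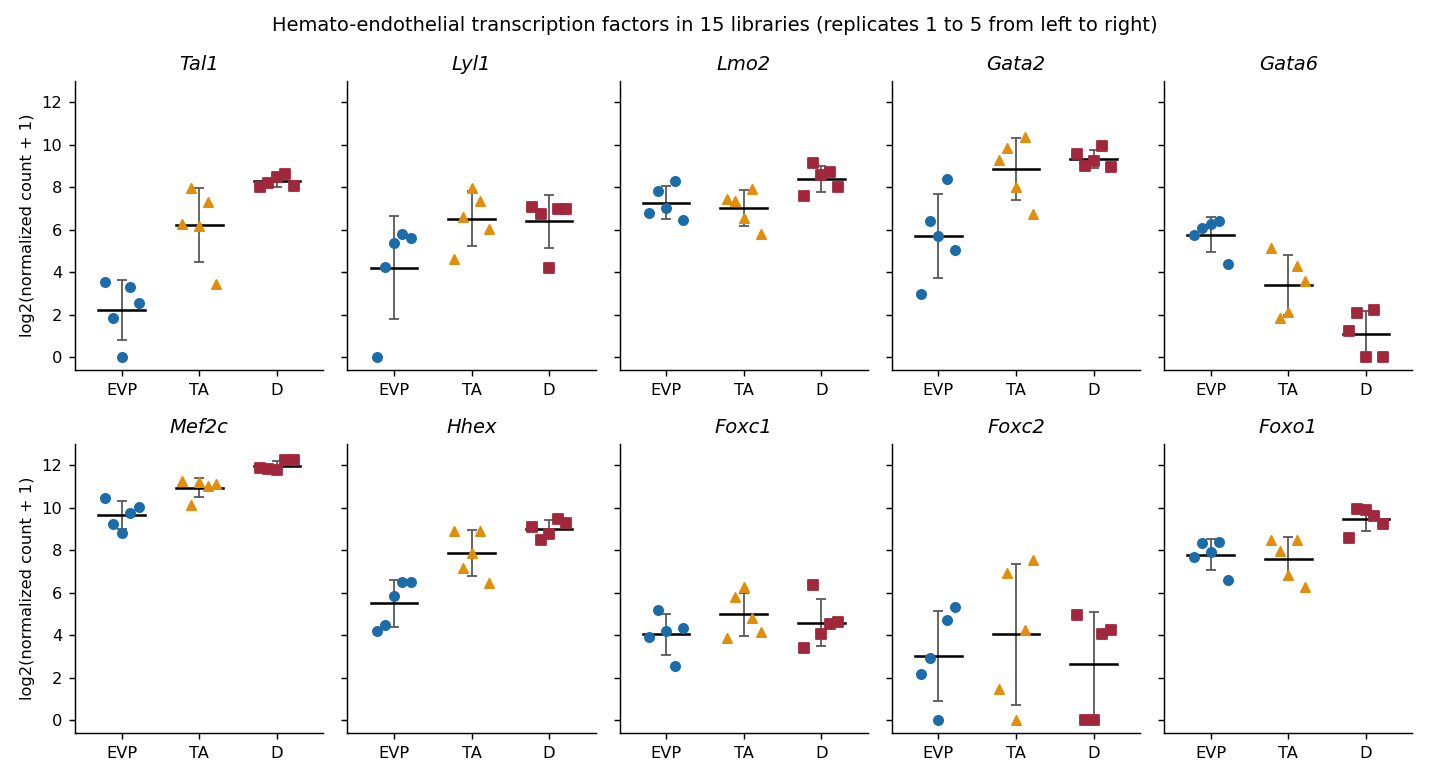
Each panel plots log2(normalized count + 1) of 1 factor in the 5 libraries each of EVP (circles), TA (triangles) and D (squares), with replicates 1 to 5 from left to right, a line at the mean and bars of 1 SD. The D libraries lie above every EVP library for Tal1, Gata2, Mef2c, Hhex and Foxo1 and below every EVP library for Gata6.

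*Tal1* lies at chr4:115056426-115071755 on the plus strand, and its protein is the core helix-loop-helix factor of the TAL1-LMO2-GATA complex. Its normalized counts in EVP were 10.5, 2.61, 0, 8.79 and 4.84 in replicates 1 to 5, and 3 of these libraries held 3 reads or fewer. In TA they were 75.8, 246, 71.4, 160 and 9.96, and in D they were 258, 298, 357, 398 and 265. All D libraries lay above all TA libraries, and TA replicate 5 lay at the level of EVP. The mean rose from 5.36 ± 4.33 (SD, n = 5) in EVP to 315 ± 60.7 in D, 58.9-fold, with a log2 difference of 6.04 ± 0.76 (SE) and a limma adjusted p of 1.2e-05. In TA the mean was 113 ± 91.7, 21.0-fold that of EVP (limma adjusted p = 0.00762), and 24 of 25 pairs of libraries had the higher value in TA. On the log2 scale this difference was 3.99, and 4.69 without TA replicate 5. The log2 difference of D minus TA was 2.05 (95% interval 0.45 to 3.65, limma adjusted p = 0.0944) and did not pass.

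*Lyl1*, the relative of *Tal1*, lies at chr8:84701457-84704715 on the plus strand. Its normalized counts were 0, 18.3, 40.9, 54.3 and 48.4 in EVP, 24.1, 96.7, 248, 165 and 64.8 in TA, and 135, 108, 17.2, 127 and 125 in D. EVP overlapped with TA through TA replicate 1 and with D through D replicate 3, which lay among the EVP libraries. TA and D overlapped without these libraries too, since the other D libraries, at 108 to 135, lay within the range of the other TA libraries, 64.8 to 248. None of the differences passed, with a log2 difference of 2.19 for D minus EVP (95% interval 0.13 to 4.25, limma adjusted p = 0.149) and of 2.31 for TA minus EVP (0.25 to 4.37, limma adjusted p = 0.249). For D minus TA it was -0.13 (-2.18 to 1.93), and this sign turned with quantile normalization. The summed level of 10 leukocyte markers was highest in TA replicates 3 and 4, at 20200 and 39982 normalized counts, where *Lyl1* was highest too. Of these markers 3 were higher in TA than in EVP and none lower, their sums ran from 2171 to 10787 in EVP, from 6741 to 39982 in TA and from 3000 to 8944 in D, and their part in the *Lyl1* values was not tested.

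The pair was also compared within libraries. The log2 ratio of *Tal1* to *Lyl1*, on normalized counts + 1, was 3.53, -2.42, -5.39, -2.50 and -3.08 in EVP, 1.61, 1.34, -1.78, -0.05 and -2.58 in TA, and 0.93, 1.46, 4.30, 1.64 and 1.08 in D. The ratio was below 0 in 4 of 5 EVP libraries and above 0 in all 5 D libraries, with EVP replicate 1, which has no *Lyl1* read, as the exception in EVP. Since the genes differ in length its sign does not say which had the higher level, and per kb of exon *Lyl1* exceeded *Tal1* in D replicates 1 and 5 (74.7 against 58.9 and 69.5 against 60.4). The mean ratio differed by 3.85 between D and EVP (exact permutation test, two-sided, p = 0.0397, adjusted over 9 tests p = 0.0893), which did not pass. Without EVP replicate 1 the difference was 5.23 and the adjusted exact p was 0.0357.

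*Lmo2*, which encodes the bridging protein of the complex, lies at chr2:103957986-103981878 on the plus strand. Its normalized counts were 109, 229, 129, 316 and 87.8 in EVP, 176, 161, 92.6, 244 and 54.8 in TA, and 191, 558, 376, 417 and 257 in D. It was counted in every EVP library, and 22 of 25 pairs of libraries had the higher value in D than in EVP. The log2 difference was 1.11 for D minus EVP (95% interval 0.18 to 2.04, limma adjusted p = 0.0972) and -0.27 for TA minus EVP (-1.20 to 0.66). D exceeded TA 2.47-fold with a limma adjusted p of 0.0495, a call that was lost in 10 of the 15 fits that left out a library, where the adjusted p reached 0.137 without D replicate 2.

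*Gata2*, the GATA factor of the complex in blood progenitors and endothelium, lies at chr6:88193891-88207032 on the plus strand. Its normalized counts were 7.02, 84.9, 51.5, 332 and 32.5 in EVP, 622, 929, 261, 1317 and 108 in TA, and 759, 511, 607, 986 and 490 in D. The D libraries lay close together and above all EVP libraries, while TA ran from the EVP range to the highest value of all. The mean rose 6.61-fold from EVP to D, with a log2 difference of 3.62 ± 0.78 (SE, limma adjusted p = 0.00248), and was 6.38-fold higher in TA than in EVP, with a log2 difference of 3.14 ± 0.78 (limma adjusted p = 0.0331). EVP replicate 4 was far above and EVP replicate 1 far below the other EVP libraries, and these log2 differences were 4.29 and 3.81 without the first and 2.95 and 2.47 without the second. The call between EVP and TA was lost in 7 of the 15 fits that left out a library, with adjusted p up to 0.0836. All 7 were fits without a library of EVP or TA. In 6 of 13 other settings of the processing this call was lost too. TA and D had means of 647 ± 492 and 671 ± 206 (SD, n = 5 each), with a log2 difference of 0.48 (95% interval -1.17 to 2.13).

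GATA2 also acts in mast cells, and the mast cell markers were low in D, where *Gata2* was high. The protease gene *Cpa3* stood at 305, 2917, 1347, 5807 and 1.38 normalized counts in EVP and at 6891, 23623, 22476, 40328 and 1684 in TA, so that replicate 4 was highest and replicate 5 lowest or next to lowest for both genes. In D it stood at 49.4, 0, 0, 87.1 and 1.81 while *Gata2* was at 490 or more, and 6 of 8 mast cell markers had no read in D replicates 2 and 3. Summed over the 8 markers the levels ran from 324 to 16832 in EVP, from 4758 to 104262 in TA and from 2754 to 3761 in D, where *Kit*, which endothelium expresses too, made up 2105 to 3580. Between EVP and D 5 of the 8 were higher in EVP and *Kit* in D, between EVP and TA *Kit* was higher in TA, and between TA and D 7 of 8 were higher in TA. Their part in the *Gata2* values of EVP and TA was not tested.

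*Gata6*, on chromosome 18, showed the opposite order. Counted after normalization, it stood at 52.7, 67.9, 76.1, 83.1 and 20.1 in EVP, 34.5, 2.64, 3.35, 18.8 and 11.2 in TA, and 1.37, 3.27, 0, 3.76 and 0 in D. Every EVP library lay above every D library, where at most 5 reads were counted, and TA lay between with overlap on both sides. The mean fell from 60.0 ± 25.03 in EVP to 1.68 ± 1.77 in D (SD, n = 5 each), 35.7-fold, with a log2 difference of -4.66 ± 0.79 (SE) and a limma adjusted p of 0.000271. The log2 difference of TA minus EVP was -2.37 (95% interval -4.04 to -0.70, limma adjusted p = 0.122) and that of D minus TA was -2.29 (-3.96 to -0.62, limma adjusted p = 0.0700). All 8 fibroblast markers were higher in EVP than in D and 5 of 8 were higher in EVP than in TA, in the order of *Gata6*. In TA replicates 1 to 5 their sums were 190986, 515442, 258708, 240939 and 606223, lowest where *Gata6* was highest. The part of these markers in the *Gata6* values was not tested. *Gata6* lay below the background estimated from olfactory receptor genes in EVP replicate 1, TA replicates 1 to 3 and D replicates 1, 3 and 5.

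**Figure D2:**
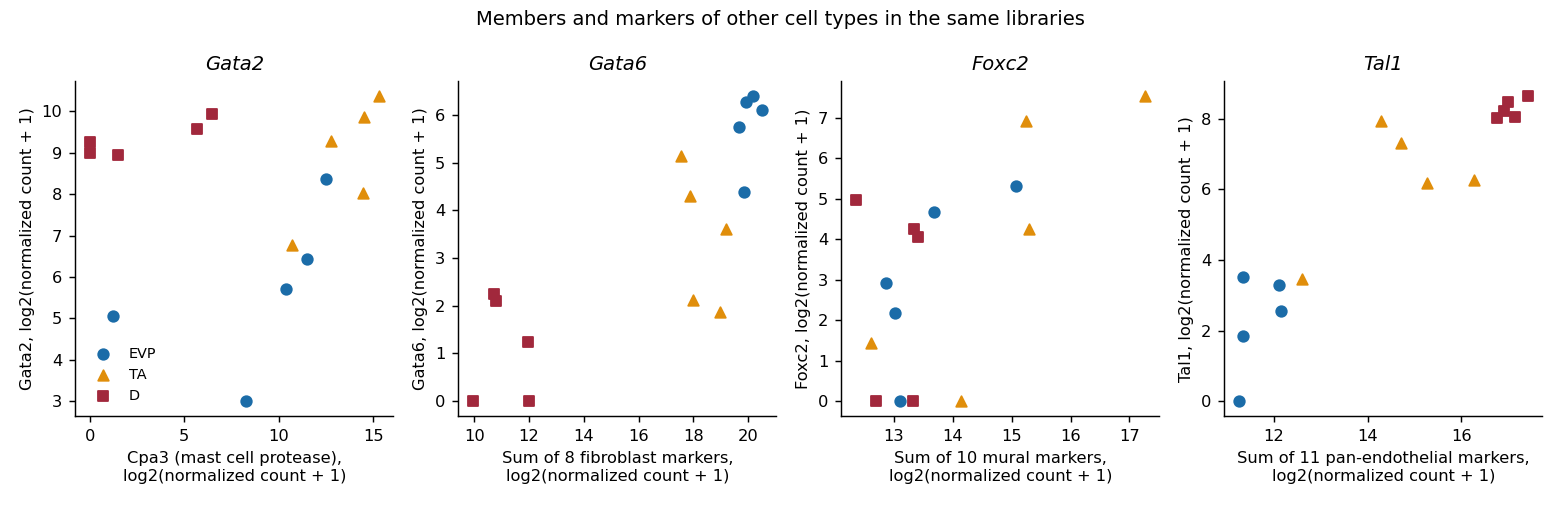
Each point is 1 library (circles EVP, triangles TA, squares D), with log2(normalized count + 1) of a factor on the vertical axis and of a marker or the summed markers of another cell type on the horizontal axis. In D, Gata2 is at 490 normalized counts or more while Cpa3 is at 87.1 or less, and Foxc2 and the mural markers are both highest in TA replicate 5.

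The GATA factors were also set against each other within libraries. The log2 ratio of *Gata2* to *Gata6* was -2.74, 0.32, -0.55, 1.98 and 0.67 in EVP, 4.13, 7.999, 5.91, 6.06 and 3.15 in TA, and 8.32, 6.91, 9.25, 7.70 and 8.94 in D. *Gata2* had the higher count in 3 of 5 EVP libraries and in all TA and D libraries, and no EVP ratio reached one of TA or D. The mean ratio was 5.52 higher in TA and 8.29 higher in D than in EVP, both with the smallest p that 5 against 5 libraries allow (exact permutation test, two-sided, p = 0.00794, adjusted over 9 tests p = 0.0357). D exceeded TA by 2.77 (exact p = 0.0238, adjusted p = 0.0714). *Gata6* had at most 5 reads in D, so the size of its ratios there depends on the added 1. With other pseudocounts or without the libraries numbered 1 the difference was 6.06 to 8.84 for D minus EVP. For TA minus EVP it was 4.59 to 5.63, and for D minus TA 1.47 to 3.21.

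**Figure D3:**
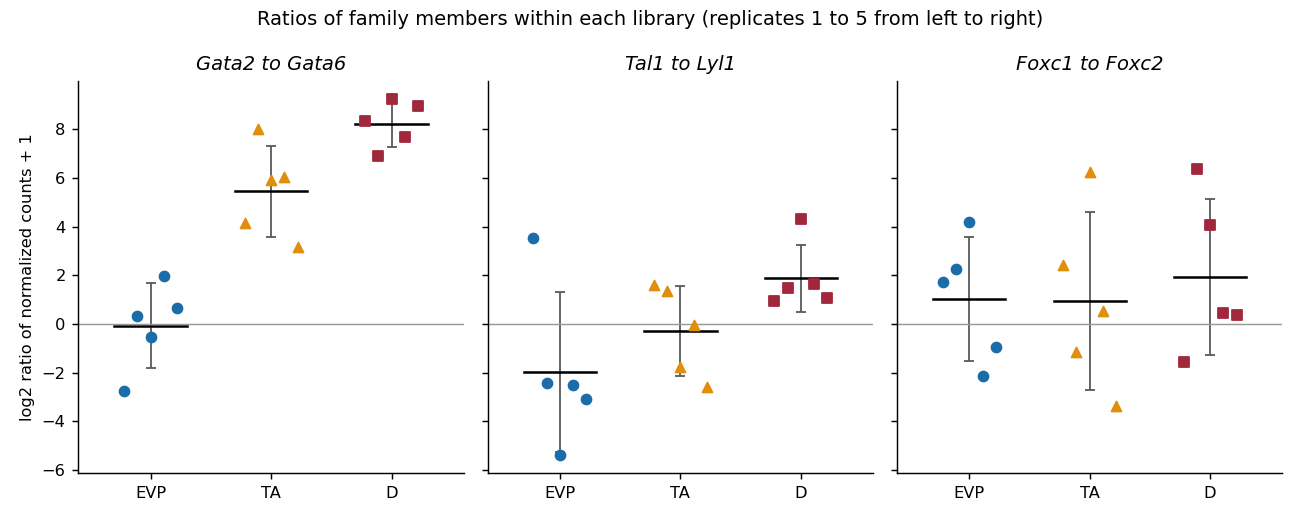
Log2 ratios of normalized counts + 1 within each library for Gata2 to Gata6, Tal1 to Lyl1 and Foxc1 to Foxc2 (circles EVP, triangles TA, squares D), with a line at the mean and bars of 1 SD. Ratios of Gata2 to Gata6 are between -2.74 and 1.98 in EVP and between 3.15 and 9.25 in TA and D, while Foxc1 to Foxc2 spreads over more than the difference between populations.

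*Mef2c*, at chr13:83504034-83667080 on the plus strand, encodes a MADS-box factor of muscle and endothelium. Its normalized counts were 1404, 605, 450, 856 and 1044 in EVP, 2427, 1112, 2343, 2058 and 2232 in TA, and 3671, 3640, 3432, 4767 and 4809 in D. D lay above TA in every library, and TA lay above EVP except for TA replicate 2. It was the only one of the 10 to pass in all 3 comparisons, rising 2.33-fold from EVP to TA (limma adjusted p = 0.0160) and 2.00-fold from TA to D (limma adjusted p = 0.0190), and 4.66-fold from EVP to D (limma adjusted p = 7.3e-06). The call between TA and D was lost without TA replicate 2, D replicate 4 or D replicate 5, with adjusted p up to 0.0543. That between EVP and TA was lost without EVP replicate 2 (limma adjusted p = 0.0557). It was also lost in 2 of 13 other settings of the processing, where the limma adjusted p reached 0.0639.

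*Hhex*, at chr19:37434810-37440731 on the plus strand, encodes a homeodomain factor of early endothelial and blood cells. In replicates 1 to 5 it had normalized counts of 17.6, 20.9, 56.4, 89.5 and 89.2 in EVP, 483, 142, 229, 472 and 87.8 in TA, and 537, 349, 434, 697 and 610 in D. TA ran from the EVP range, in replicate 5, to that of D. The mean was 5.17-fold higher in TA than in EVP (limma adjusted p = 0.0188) and 9.60-fold higher in D than in EVP (limma adjusted p = 8.3e-05). The call between EVP and TA was lost without EVP replicate 2, TA replicate 1 or TA replicate 4, with limma adjusted p up to 0.0636. It was also lost in 5 of 13 other settings of the processing, where the limma adjusted p reached 0.159. D minus TA was 1.14 on the log2 scale (95% interval 0.03 to 2.25, limma adjusted p = 0.198).

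*Foxo1*, at chr3:52268336-52353221 on the plus strand, encodes a forkhead factor that growth factor signals hold out of the nucleus and that restrains endothelial growth. Normalized counts of *Foxo1* were 204, 319, 236, 336 and 94.7 in EVP, 350, 244, 112, 360 and 76.6 in TA, and 375, 984, 933, 773 and 605 in D. EVP and TA covered the same range, and every D library lay above both. D exceeded EVP 3.09-fold (limma adjusted p = 0.0131) and TA 3.22-fold (limma adjusted p = 0.0105), while TA minus EVP was -0.18 on the log2 scale (95% interval -1.13 to 0.77). With background estimated from the olfactory receptor genes subtracted, *Foxo1* passed neither in D minus EVP nor in D minus TA. The log2 differences were then 3.17 and 2.00 (limma adjusted p = 0.136 and 0.483). Of the exon bases of *Foxo1* 7.78% are shared with the antisense gene *Gm20402*, which had no read.

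*Foxc1*, at chr13:31806633-31812476, and *Foxc2*, at chr8:121116171-121118895, both on the plus strand, encode close forkhead factors of arterial and lymphatic vessels. *Foxc1* had normalized counts of 14.04, 35.3, 17.2, 4.80 and 19.4 in EVP, 13.8, 54.5, 74.8, 26.6 and 16.8 in TA, and 9.61, 81.6, 15.6, 21.8 and 23.6 in D. *Foxc2* had 3.51, 6.53, 0, 24.8 and 38.7 in EVP, 1.72, 121, 0, 18.0 and 185 in TA, and 30.2, 0, 0, 15.8 and 18.1 in D. Both were low and overlapped between all populations, and *Foxc2* ranged from no read to its highest values within TA. The log2 difference of D minus EVP was 0.56 for *Foxc1* (95% interval -0.88 to 2.00, limma adjusted p = 0.702) and -0.36 for *Foxc2* (-3.56 to 2.84, limma adjusted p = 0.907). The *Foxc2* interval holds the 2.32 of *Mef2c* in either direction.

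The TA library with the most *Foxc2*, replicate 5, also had the highest sum of the 10 mural cell markers, 157242 normalized counts. These sums ran from 7449 to 34637 in EVP, from 6231 to 157242 in TA and from 5227 to 10913 in D. In EVP *Foxc2* was also highest where the sum was highest, in replicate 5, but in D where it was lowest, in replicate 1. Of the 10 markers 2, *Kcnj8* and *Abcc9*, were higher in TA than in EVP, and 6 were higher in TA than in D. Between EVP and D the same 2 were higher in D and 4 were higher in EVP. Their part in the *Foxc2* values was not tested. The log2 ratio of *Foxc1* to *Foxc2* averaged 1.01 ± 2.55 in EVP libraries, 0.94 ± 3.66 in those of TA and 1.93 ± 3.20 in those of D (SD, n = 5 each), and none of the differences passed (exact permutation test, adjusted p from 0.795 to 0.960).

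**Figure D4:**
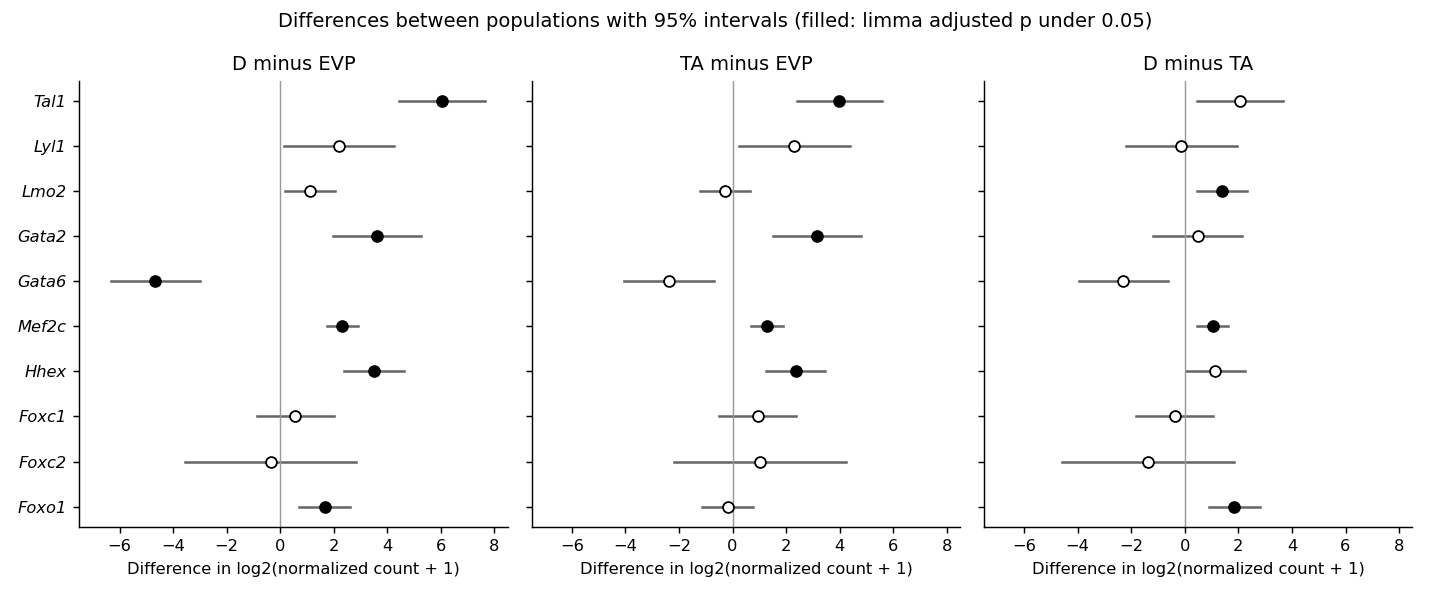
Differences in mean log2(normalized count + 1) for D minus EVP, TA minus EVP and D minus TA, with 95% intervals, for the 10 factors, filled where the limma adjusted p was under 0.05. Tal1, Gata2, Hhex, Mef2c and Gata6 lie farthest from 0 in D minus EVP, and the Foxc2 intervals are the widest.

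Between EVP and TA 4 of the 10 factors passed, *Tal1*, *Gata2*, *Mef2c* and *Hhex*, all higher in TA, against 3.50% of all tested genes, 1.94% in this direction and 1.56% higher in EVP. Libraries of EVP and TA overlapped for all 10 factors, while 4.29% of the tested genes did not overlap, 1.59% with TA above and 2.70% with EVP above. The median log2 difference of TA minus EVP was 1.15 over the 10 factors and -0.09 over all tested genes. The number that passed was 1 without EVP replicate 2, 2 without TA replicate 1 or TA replicate 4, and 0 when the libraries numbered 1 were left out of all populations, where the log2 difference was 4.31 for *Tal1*, 1.404 for *Mef2c*, 1.77 for *Hhex* and 2.36 for *Gata2* (limma adjusted p = 0.0659, 0.0639, 0.159 and 0.206) against 3.99, 1.28, 2.36 and 3.14 with all libraries. In that fit 104 genes of all passed, against 893.

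Between TA and D 3 of the 10 passed, *Foxo1*, *Mef2c* and *Lmo2*, all higher in D, against 12.5% of all tested genes, 4.31% in this direction and 8.21% higher in TA. *Tal1*, *Mef2c* and *Foxo1* had D libraries above all TA libraries, against 9.25% of tested genes without overlap, 3.69% with D above and 5.56% with TA above. The median log2 difference of D minus TA was 0.76 over the 10 factors and -0.24 over all tested genes. Without D replicate 4 or D replicate 5 only *Foxo1* passed. With background subtracted *Foxo1* did not pass (limma adjusted p = 0.483).

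The place of TA between the other populations differed from factor to factor. On a scale where the mean log2 value is 0 in EVP and 1 in D, TA lay at 0.868 for *Gata2*, 0.674 for *Hhex*, 0.661 for *Tal1*, 0.553 for *Mef2c* and 0.509 for *Gata6*. It lay at -0.106 for *Foxo1* and -0.240 for *Lmo2*, on the EVP side of the scale. For *Lyl1* and *Foxc1* it lay past D, at 1.06 and 1.68, and for *Foxc2* at -2.83. *Lmo2*, *Lyl1*, *Foxc1* and *Foxc2* did not pass between EVP and D, so their scale rests on differences that did not pass. Single TA libraries spread widely on the scale, from 0.200 to 0.945 for *Tal1* and from 0.289 to 1.28 for *Gata2*. TA replicate 5 was the lowest TA library for 5 factors, *Tal1*, *Lmo2*, *Gata2*, *Hhex* and *Foxo1*, and it had the lowest sum of pan-endothelial markers of the TA libraries, 6167. The highest sum, 79027, was in TA replicate 1, the highest TA library for 3 factors and the lowest for 2, *Lyl1* and *Foxc1*. *Tal1* was highest in TA replicate 2, where the sum was 19817. Of the 11 markers 9 were higher in TA than in EVP. The part of this marker content in the TA values was not tested.

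Levels of different genes were compared as normalized counts per kb of exon. In D the order of the means was *Mef2c* with 259 ± 42.5, *Lmo2* with 166 ± 66.1, *Gata2* with 124 ± 38.1, *Hhex* with 104 ± 27.3, *Foxo1* with 84.7 ± 28.8, *Tal1* with 72.0 ± 13.9 and *Lyl1* with 56.8 ± 27.0 per kb (SD, n = 5). *Foxc1*, *Foxc2* and *Gata6* followed with 5.21, 4.71 and 0.258 per kb. In EVP *Lmo2* was first with 80.4 ± 44.2 and *Mef2c* next with 55.5 ± 23.9 per kb, followed by *Foxo1* with 27.4, *Gata2* with 18.8, *Lyl1* with 18.0, *Hhex* with 10.8, *Gata6* with 9.21, *Foxc2* with 5.40 and *Foxc1* with 3.10. *Tal1* was last in EVP with 1.22 ± 0.989 per kb, below its relative *Lyl1*. In TA *Mef2c* with 129, *Gata2* with 120, *Lmo2* with 67.2 and *Lyl1* with 66.5 per kb led, and *Gata6* with 2.166 was last. Each gene overlapped in its libraries with the next in the order, in all 3 populations.

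**Figure D5:**
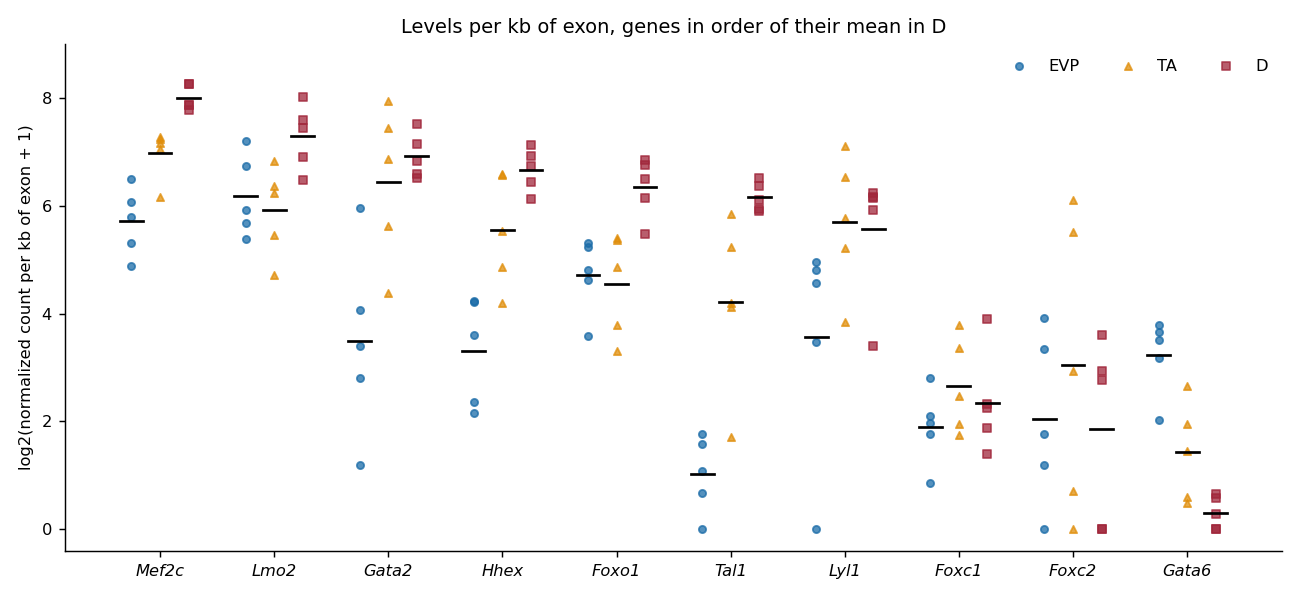
Log2(normalized count per kb of exon + 1) of the 10 factors in the libraries of EVP (circles), TA (triangles) and D (squares), in order of the mean in D, with lines at the means of the log2 values. Mef2c is highest in D, Lmo2 is highest in EVP, and Tal1 moves from the lowest place in EVP to the range of Foxo1 in D.

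Genes were ranked by how closely their profile over the 15 libraries followed that of a factor, as the root mean square difference of log2(normalized count + 1) after centring. *Lmo2* and *Foxo1* were each other's closest gene, at 0.36, against a spread of 0.89 and 1.09 of their own profiles. *Mef2c* was followed most closely by *Zbtb46* (0.34) and *Mgll* (0.35), *Hhex* by the kinase gene *Jak3* (0.38) and *Ms4a6d* (0.51), and *Tal1* by *Adgrg3* (0.58) and *Gimap5* (0.81). *Gata2* was followed by *Kit* (0.86), which encodes the receptor for stem cell factor, and by the Notch ligand gene *Jag2* (0.94). The closest genes of *Lyl1* were *Lfng* (0.83) and *Folr2* (0.95), those of *Foxc1* *Pet100* (0.64) and *Gmnn* (0.65), and those of *Foxc2* *Gpr20* (1.25) and *Nap1l3* (1.43). *Foxo1* had *Arhgef3* (0.48) as the next after *Lmo2*, and *Lmo2* had *AW112010* (0.44) as the next after *Foxo1*. Among the factors themselves the next closest pair was *Mef2c* with *Hhex* at 1.03, and the farthest was *Tal1* with *Gata6* at 4.70. The measure describes these 15 libraries, which fall into the same 3 populations.

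Of 11 cofactors and partners of the TAL1-LMO2-GATA complex, 4 were higher in D than in EVP, 2 were higher in EVP and 5 did not pass. Over all tested genes 7.46% were higher in D and 11.6% higher in EVP. The ETS factor genes *Erg* and *Fli1* rose 39.8-fold and 23.7-fold from EVP to D (limma adjusted p = 0.000112 and 3.6e-07), *Erg* from 0 to 28.1 normalized counts in EVP libraries to 398 to 747 in D. *Tcf4*, an E protein that pairs with TAL1, was 5.96-fold higher in D (limma adjusted p = 2.0e-06), and the corepressor gene *Cbfa2t3* 3.25-fold (limma adjusted p = 0.0154). *Runx1*, needed for the endothelial to hematopoietic transition, went the other way, with 953 to 1506 normalized counts in EVP libraries, 124 to 900 in TA and 2.35 to 48.1 in D, a 46.4-fold difference between EVP and D (limma adjusted p = 1.35e-06). *Zfpm2*, a GATA cofactor, was 4.17-fold higher in EVP (limma adjusted p = 0.0448). The bridging gene *Ldb1* averaged 208 normalized counts in EVP, 257 in TA and 350.1 in D and passed in no comparison. Between EVP and TA 1 of the 11 was higher in TA and 1 in EVP, and between TA and D 3 were higher in D and 1 in TA. The shares over all tested genes were 1.94% and 1.56% between EVP and TA, and 4.31% and 8.21% between TA and D.

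Among 14 relatives of the factors 10 were abundant enough to test. Of these, 2 were higher in D and 2 in EVP, beside 7.46% and 11.6% over all tested genes. *Mef2a* moved as *Mef2c* did, 3.10-fold from EVP to D (limma adjusted p = 1.6e-06), and passed in all 3 comparisons. *Lmo1* was 1.93-fold higher in D (limma adjusted p = 0.0461), whereas *Lmo4* and *Gata3* were 2.71-fold and 2.81-fold higher in EVP (limma adjusted p = 0.000280 and 0.0403). *Gata3* had its highest mean in TA, 1286 normalized counts, and was higher there than in D (limma adjusted p = 0.00199) while TA against EVP did not pass (limma adjusted p = 0.317). *Gata1*, the GATA factor of red cells, megakaryocytes and mast cells, had a mean of 26.1 normalized counts in TA, against 5.62 in EVP and 5.79 in D. Of 8 tested blood cell factors of 10 listed, *Myb* and *Cebpa* were higher in EVP than in D (limma adjusted p = 0.0355 and 0.0281) and the other 6 did not pass, beside 11.6% higher in EVP and 7.46% higher in D over all tested genes, and 3, *Spi1*, *Ikzf1* and *Myb*, were higher in TA than in D. Over all tested genes 8.21% were higher in TA than in D.

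Genes reported as targets of the factors were examined from lists. Only the list for TAL1, GATA2 and LMO2 is of targets in endothelium, and those for FOXO, FOXC and MEF2 name no cell type. Of 11 genes reported for TAL1, GATA2 and LMO2, 9 were higher in D than in EVP, 8 were higher in TA than in EVP and all 11 were higher in D than in TA, with median log2 differences of 6.76, 4.07 and 2.41. They include *Pecam1* and *Kdr*, which encode the CD31 and VEGFR2 used in the sort, and 6 of the 11 are also among the pan-endothelial markers. *Cdh5*, *Emcn*, a sialomucin gene of capillaries and veins, and *Nos3*, endothelial nitric oxide synthase, were 136-fold, 108-fold and 99.4-fold higher in D than in EVP (limma adjusted p from 1.6e-06 to 2.1e-06). The *Tek* and *Edn1* differences between D and EVP did not pass (limma adjusted p = 0.322 and 0.0893). *Tek*, the angiopoietin receptor gene, ran from 585 to 2335 normalized counts in EVP libraries and from 1689 to 3373 in D.

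Of 15 genes reported as FOXO targets 1 was higher in D than in EVP and 7 were higher in EVP, beside 7.46% and 11.6% over all tested genes. *Foxo1* itself was higher in D, and its part in the levels of these genes was not tested. *Insr*, the insulin receptor gene, was 4.54-fold higher in D (limma adjusted p = 0.00808). *Irs2*, an adaptor of that receptor, was 42.2-fold higher in EVP (limma adjusted p = 1.2e-06), with 72.6 to 339 normalized counts in EVP libraries and 1.37 to 9.01 in D. The repressor gene *Bcl6* and *Pik3ip1*, an inhibitor of PI3 kinase, were 19.0-fold and 5.68-fold higher in EVP (limma adjusted p = 0.000129 and 0.000205). The median log2 difference of D minus EVP over the 15 genes was -0.90 against -0.46 over all tested genes. None of the 15 passed between EVP and TA, where *Foxo1* did not pass either, and between TA and D 2 were higher in D and 6 in TA. Over all tested genes 4.31% were higher in D than in TA and 8.21% higher in TA.

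Of 6 genes reported as FOXC targets 5 were higher in D than in EVP, with *Dll4*, *Angpt2* and *Cxcr4* 106-fold, 78.8-fold and 22.9-fold higher (limma adjusted p = 3.8e-06, 2.7e-07 and 0.000279), while neither *Foxc1* nor *Foxc2* passed. *Hey2*, the sixth, passed in no comparison, with TA libraries from 1.76 to 133 normalized counts that overlapped both other populations. Of 5 genes reported as MEF2 targets, the Notch ligand gene *Dll4* was higher in D and *Klf4*, a factor gene of quiescent endothelium, was 8.41-fold higher in EVP (limma adjusted p = 3.6e-05), and 3 did not pass. Over all tested genes 7.46% were higher in D and 11.6% higher in EVP. The median log2 difference over the 5 MEF2 targets was -0.42, close to the -0.46 of all tested genes, and *Mef2c* was 4.66-fold higher in D. The part of the factors in the levels of these targets was not tested.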

How the data were processed

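RNA of 15 sorted populations (5 libraries each of EVP, TA and D) was sequenced. The authors aligned reads with STAR 2.5.3a to GRCm38, counted them on genes of Ensembl release 91 with HTSeq-count 0.6.1 and deposited counts divided by DESeq2 1.10.1 size factors, a signal here called normalized counts. The strand setting of the counting is not given in the sources used here. The deposited tables of fold changes and p-values were not used. The deposited values gave whole reads for 100% of entries within 0.01.

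Values were analysed as log2(normalized count + 1) over 25549 genes (those whose mean reached 5) with limma 3.58.1 in R 4.3.3, 1 fit over the 3 populations without a block, and Benjamini-Hochberg adjustment over all genes at a threshold of 0.05. Ratios were tested with exact permutation tests (SciPy 1.17.1), adjusted over 9 tests. On the whole reads, edgeR 4.0.16 (quasi-likelihood) called 3849, 663 and 2570 genes and DESeq2 1.42.0 called 5546, 1900 and 4202 in EVP against D, EVP against TA and TA against D, where limma called 4859, 893 and 3199. All 10 factors are named, with the 2 genes most alike to each (those of *Gata6* are not reported here), and of each list up to 3 called genes with the largest change in each direction between EVP and D, besides genes a result turns on. The members and lists were chosen with earlier results of these data known. The labels do not say that libraries came from separate animals, so p-values measure only the spread between libraries. The floor of 3 reads covers counting error only. Alternatives were another pseudocount, filter, scaling, block, weights, tool and each library left out. The scripts were tested on simulated data.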

Additional observations from a re-analysis of the deposited data

Results flagged for a closer look

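Of the 30 groups of 5 libraries, 10 factors in 3 populations, 3 held a library whose gap to the nearest other exceeded 0.71 of the group's range on the log2(normalized count + 1) scale, and chance alone flags about 1 in 20 groups. For *Lyl1* in EVP it was replicate 1, the shallowest library, with 0 normalized counts against 18.3 to 54.3 in the others. For *Lyl1* in D it was replicate 3, with 17.2 against 108 to 135. For *Mef2c* in TA it was replicate 2, with 1110 normalized counts against 2058 to 2427.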

How the results depend on the processing

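For each of the 30 log2 differences of the 10 factors, 5 of the 15 fits leaving out single libraries could not change the difference itself. Over all these fits sign and verdict were the same in 411 cases. A call was lost in 24, one was gained in 4 and the sign turned in 11, and other settings did so in 351, 23, 7 and 9. The differences whose sign turned were not past the threshold. Written with the later population minus the earlier, they were EVP vs D: log2 fold change of Foxc2 (0.61 with quantile normalization, 0.0502 with background subtracted, -1.11 to 0.31 leaving out single libraries), EVP vs TA: log2 fold change of Lmo2 (0.0614, 0.11, and -0.50 to 0.0367), *Lyl1* in D minus TA (0.79, 0.16, and -0.59 to 0.43), *Foxo1* in TA minus EVP (0.0025 scaled to the same total, 1.17 with background subtracted, -0.48 to 0.15 leaving out single libraries), *Foxc1* in D minus TA (0.35 with quantile normalization) and *Gata2* in D minus TA (-0.0446 to 0.86 leaving out single libraries). The ratio of *Foxc1* to *Foxc2* ran from -0.19 to 1.79, -1.40 to 1.01 and -0.11 to 2.32 leaving out single libraries. That of *Tal1* to *Lyl1* ran from 2.999 to 5.23 (D minus EVP) and that of *Gata2* to *Gata6* from 2.20 to 3.41 (D minus TA), each passing in 1 fit. Without the libraries numbered 1 the difference was 7.59 for the log2 ratio of Gata2 to Gata6, EVP vs D, and 5.18 for the log2 ratio of Gata2 to Gata6, EVP vs TA (exact adjusted p = 0.0857), where 4 against 4 libraries allow no exact p below 0.0286. The genes called between EVP and D were 7609 with array weights. Between EVP and TA they were 1900 with DESeq2, 104 without the libraries numbered 1, 407 with background subtracted and 429 to 1214 leaving out single libraries (lowest without EVP replicate 2). Between TA and D they were 2117 with quantile normalization, 5054 with array weights and 1641 with background subtracted. The factors called between EVP and TA were 1 in a fit of those populations alone, 2 with array weights or background subtracted, 0 without the libraries numbered 1 and 1 to 4 leaving out single libraries, and between TA and D 5 with array weights, 1 with background subtracted and 1 to 3 leaving out single libraries. The cause was not tested. Calls between EVP and TA were 495 higher and 398 lower in TA, and 714 and 237 scaled to the same total. Those between EVP and D were 1907 higher and 2952 lower in D, and 1983 and 1920 with quantile normalization. Same-numbered libraries correlated from -0.136 to 0.689, with 11 of 15 pairs over 0.1 and 12 of 15 best matched to their own number. Since not every pair was over 0.1 and the labels name no pairs, the numbers were not taken as pairs. Replicates 1, 4 and 5 nevertheless correlated at 0.359 to 0.689 in all 3 comparisons. The fit without a block does not model this likeness. The replicate block gave 5710, 1262 and 4047 called genes, and *Lmo2* in D minus EVP (limma adjusted p = 0.0207) and *Gata6* in D minus TA (0.0463) then passed. Background subtraction was chosen after the data were seen, and in EVP replicate 1 its estimate exceeded 8 of the 10 factors. At 3 reads or fewer, as for *Tal1* in EVP and *Gata6* in D, depth limits the fold.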
